A study of Mus musculus with 4 samples.

Results

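The ankyrin repeat, Xin repeat and associated stress genes described here are Ankrd1, Ankrd2, Ankrd23, Xirp1, Xirp2, Fhl2 and Hspb7, 7 of the 21755 protein-coding genes of the mouse annotation (GENCODE M21, GRCm38, mm10). They were listed by name for their roles in striated muscle, and the rule uses no measured value. For each gene, the locus is the gene body and the 50 kb upstream of its start, and every accessible region (peak) overlapping it was taken from the peak lists of both nuclear populations. Position is given in bp from the gene start along transcription, so that a minus sign means upstream.

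Hearts came from male C57BL/6 mice of 8 to 12 weeks carrying NuTRAP and Cdh5-Cre, and all samples share both alleles, with no other treatment. Nuclei were sorted by flow cytometry into GFP+ (endothelial) and GFP- (non-endothelial) nuclei, and 100 to 50000 nuclei entered each ATAC-Seq reaction, in which the Tn5 transposase cuts accessible DNA. There were 2 libraries of each population, and nothing in the labels says that they came from separate hearts. The endothelial Cdh5 promoter drives Cre, so GFP follows cells in which that promoter has been active, and the GFP- nuclei are a mixture of cardiomyocyte, stromal and other nuclei.

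Each population is represented by 1 list of peaks that the authors called from both of its libraries together, so no value has a replicate error, no difference has a replicate check, and no test or p-value is given. The authors downsampled the libraries before calling, and read counts per peak are not analysed here. The GFP- list held 78912 peaks over 52.1 Mb and the GFP+ list 65008 peaks over 41.8 Mb. The strength of a peak is its area, the caller's signal summed along the peak, given as a percentile rank within its own list, where 100 is the strongest and 0 the weakest peak or no peak. Differences in rank are GFP+ minus GFP-, and a step of more than 20 points is counted as a change in rank.

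Ankrd1, Ankrd2 and Ankrd23 belong to the muscle ankyrin repeat proteins, which bind the elastic N2A region of titin in the sarcomere and can move to the nucleus under stretch or injury. Xirp1 and Xirp2 carry Xin repeats, bind actin and sit at the intercalated discs that join cardiomyocytes. Fhl2 is a LIM-only adaptor of the Z-disc, the nucleus and signalling complexes, and Hspb7 is a small heat shock protein abundant in the heart that restrains protein aggregation and actin filament length.

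All 7 genes had a peak at their start (250 bp or less from where the gene record begins) in both populations, against 53.8% of all protein-coding genes. By area, the GFP- and GFP+ ranks were 84.3 and 81.4 for Ankrd1, 82.3 and 80.8 for Ankrd2, and 97.2 and 97.4 for Ankrd23. They were 86.7 and 79.0 for Xirp1 and 68.0 and 69.0 for Xirp2. Fhl2 had ranks of 96.0 and 95.6, and Hspb7 of 98.1 and 93.1. By area, the start of Xirp2 was the weakest of the 7 in each list, and those of Hspb7, Ankrd23 and Fhl2 were the strongest.

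No member's start peak differed by more than 20 rank points between the lists. Among the 12596 genes with a start peak in either list, 7.71% were lower and 2.1% higher in GFP+ by that measure, so 0 of 7 does not stand apart from the other genes. The differences by area ran from -7.72 for Xirp1 to 1.00 for Xirp2, with a median of -1.56, beside -0.83 over all genes with a start peak. Their sign depended on the measure. Area per bp is the area divided by the called length of the peak. Ranked by it, the GFP- and GFP+ ranks were 66.1 and 75.9 for Xirp1, 73.8 and 84.9 for Ankrd2, and 77.0 and 84.2 for Ankrd1. Xirp2 then had 91.1 and 85.4, below Fhl2 alone (91.2 and 91.6), while Hspb7 had 81.5 and 82.4 and Ankrd23 86.9 and 83.7. Every member that rose by this measure had a shorter called start peak in GFP+. Xirp2 and Ankrd23, which fell, had a longer one, so the measure is not free of peak length. The median difference was 0.98 by area per bp, beside -1.68 over all genes with a start peak. Ranked by the caller's p-value at the summit, the median was -1.72, beside -1.20, and Xirp2 alone was higher in GFP+ (0.56). The signs by area and by summit p were thus the same for every member but Ankrd23. No direction of the median start difference, and no order of the members, held by every measure. In bulk nuclei, fewer cells with an open site and less opening in each cell cannot be told apart.

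**Figure D1:**
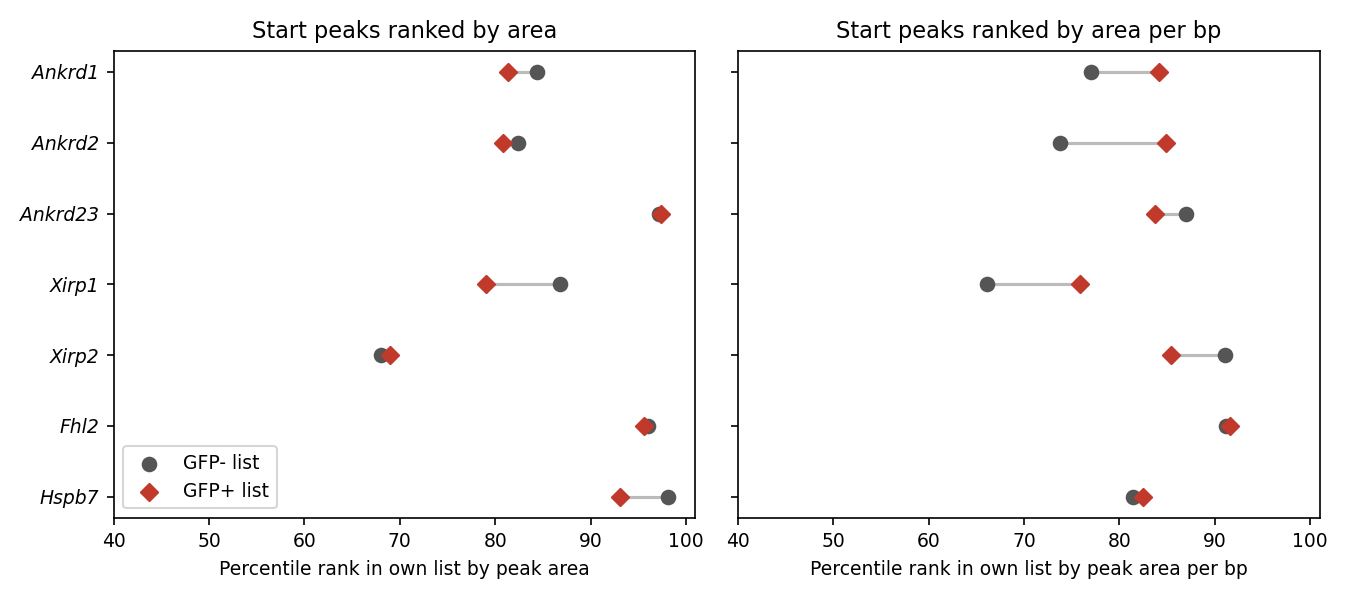
Percentile rank of the start peak of each gene in the GFP- list (grey circles) and the GFP+ list (red diamonds), by peak area (left) and by area per bp (right), on an axis that begins at 40. By area the pairs lie within 7.72 points of each other, and by area per bp Ankrd1, Ankrd2 and Xirp1 lie to the right in GFP+ by 7.20 to 11.0 points.

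The start peaks of marker genes were read the same way, because nuclei of another type in a gate would carry such genes with them. Of 11 endothelial markers, 7 had a start peak in both lists and 2 only in GFP+, 6 were more than 20 points higher in GFP+, and the median difference was 45.7. Cdh5 went from a rank of 18.0 to 85.3, and Tek was lower by 27.0 points (a difference of -27.0). Of 10 cardiomyocyte markers, 9 had a start peak in both lists and Nkx2-5 only in GFP-, and none differed by more than 20 points, with a median of -3.35 and GFP+ ranks of 94.3 for Tnnt2 and 100.0 for Myh6. Of 8 fibroblast markers, 1 (Gsn) had a start peak in both lists and 6 only in GFP-, and Tcf21, Dcn and Col1a2 were at 0 in GFP+. Mural markers were present in both for 4 of 8 and only in GFP- for 3, macrophage markers in both for 1 of 6 (Cd68), and lymphocyte markers in neither list for 4 of 4 by this start. Over each whole list, GFP- and GFP+ ranks ran from 0 to 81.1 and 0 to 94.7 for endothelial, from 10.6 to 100.0 and 0 to 100.0 for cardiomyocyte, and from 0 to 95.6 and 0 to 77.1 for fibroblast markers. With any annotated start allowed, Nkx2-5 (81.5), Col1a1 (80.7), Pdgfra (87.0) the lymphocyte marker Cd2 (81.9) and the endothelial Pecam1 (66.9) and Erg (57.5) also had GFP+ peaks, and Cd2 had a rank of 90.2 in GFP-. The part of other cell types in the member peaks of either list was not tested.

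Genes that work beside the members were similar. Of 22 partners in titin, Z-disc and intercalated disc mechanosensing, 21 had a start peak in both lists and Capn3, the muscle calpain, in neither, with a median difference of -2.59. The largest steps among them were -15.5 for Trim63, a muscle ubiquitin ligase, and 8.44 for Ttn, titin itself. Of 11 relatives in the FHL and small heat shock families, 10 had a start peak in both lists and Fhl5 in neither, with a median of -0.26, and Hspb2 and Cryab shared 1 peak. Of 8 cardiac stress genes, 6 had a start peak in both lists, with a median of -1.15, and Nppa, the atrial natriuretic peptide, and Atf3 had none where their gene records begin. With any annotated start allowed, Atf3 had GFP- and GFP+ ranks of 99.7 and 99.5 and Capn3 of 26.9 and 29.5. Nppa and Fhl5 still had none. No gene of these 3 lists differed by more than 20 points.

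Over the whole loci, 104 GFP- peaks and 90 GFP+ peaks were found. Of the GFP+ peaks, 86 shared 1 bp or more with a GFP- peak (95.6%, Wilson 95% interval 89.1% to 98.3%, counting error only) and 4 did not. GFP+ peaks without a GFP- partner were 13.4% of the list and 12.6% of peaks at the loci of all protein-coding genes. Those 4 lay in gene bodies, 3 in Fhl2 at ranks of 5.27, 19.4 and 27.1 and 1 in Xirp1 at 7.33. All 39 upstream GFP+ peaks had a GFP- partner. Where an endothelial peak was present at these loci, a peak of the non-endothelial nuclei thus nearly always touched it. A touch of 1 bp comes more easily where GFP- peaks fill more of the locus. They covered 40.5% of the Fhl2 and 37.6% of the Ankrd23 locus, which held 44 and 14 of the GFP+ peaks. The median over all protein-coding genes was 2.89%, and the part of this cover in the sharing was not tested. With a reciprocal overlap of 50% required, the share was 60%, below the list-wide 73.7%.

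The reverse was less complete. Of the GFP- peaks, 76 overlapped a GFP+ peak (73.1%, 63.8% to 80.7%) and 28 did not, beside a list-wide 30.3% without a partner and 27.7% at the loci of all protein-coding genes. Without a partner were 17 of the 52 GFP- peaks of Fhl2, 4 of 13 of Ankrd2 and 2 of 6 of Ankrd1. For Ankrd23 it was 2 of 14, for Xirp1 2 of 8 and for Xirp2 1 of 5, while all 6 GFP- peaks of Hspb7 were shared. Sharing followed strength. Of the member peaks above rank 75, 27 of 27 were shared (87.5% to 100%), beside 94.6% of all such peaks of the list. Between ranks 50 and 75, 27 of 31 were shared, beside 78.3%. Between 25 and 50 it was 11 of 22, beside 65.5%, and below 25 it was 11 of 24, beside 40.3%.

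When overlapping peaks were merged into regions, the 7 loci held 107 regions, 75 with a peak in each list, 28 with a GFP- peak alone and 4 with a GFP+ peak alone. The area rank was lower in GFP+ in 87 and higher in 20, beside 58793 lower and 27854 higher among all 86649 regions. The median difference was -8.92, beside -3.90 over all regions, so lower ranks in GFP+ were also the commoner case list-wide. More than 20 points lower were 33 (30.8%, against 23.8% of all regions), and more than 20 points higher were 5 (4.67%, against 7.63%). Fhl2 supplied 21 of the 33. Without it, 12 of 52 regions (23.1%) were lower by that step and the median was -6.59, so the larger share of lowered regions rested on that 1 locus. The size of the median also depended on the ranking measure, at -4.60 by summit p, -1.79 by area per bp and -2.64 with lists of equal length.

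**Figure D2:**
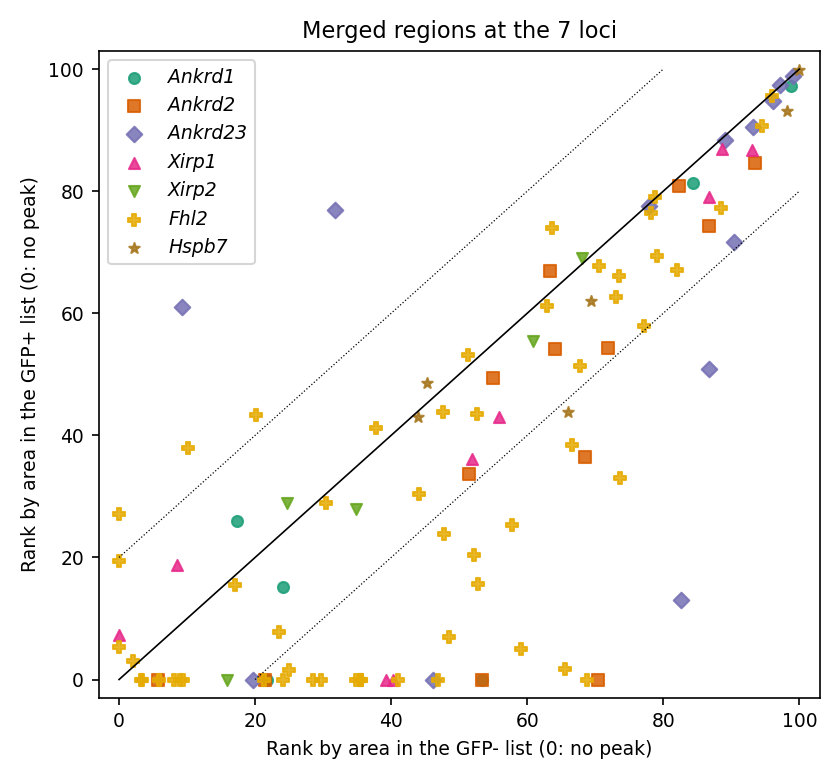
Area rank of each of the 107 merged regions in the GFP- list (x axis) and the GFP+ list (y axis), with 0 where a list had no peak and a symbol for each gene. The solid line marks equal rank and the dotted lines a step of 20 points, with 33 regions below the lower and 5 above the upper dotted line.

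Shared peaks at these loci were narrower in GFP+. Across the 76 shared GFP- peaks the median length was 968 bp, and that of the highest ranked overlapping GFP+ peak was 706 bp. Where several GFP+ peaks overlapped, the others were left out, so division of a peak also counts as a shorter length. The median of the ratios was 0.782, beside 0.943 over all 54989 shared peaks. Shorter in GFP+ were 62 of 76, beside 33523 of the 54989. A GFP- peak was divided into several GFP+ peaks in 12 of 76 cases (15.8%, against 3.79% of all shared peaks). All shared GFP- peaks had a median length of 557 bp, so these contrasts are between peaks of unlike length. The part of that length difference in them was not tested. The summits lay a median of 22.5 bp apart (19 bp over all shared peaks).

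Beginning with the ankyrin repeat genes, Ankrd1 (ENSMUSG00000024803.9, chromosome 19, 36111961 to 36120099, minus strand) had its strongest peak far from the gene. In GFP- nuclei an intergenic peak of 3196 bp with its summit at -47359 bp had an area of 10132 and a rank of 98.8. In GFP+ nuclei the same stretch held a peak of 2099 bp with its summit at -47337 bp, an area of 6989 and a rank of 97.2, and a separate one of 772 bp at a rank of 75.8. The start peak, over the first exon, ranked well below it in both lists. A peak of rank 53.3 at -9797 bp and one of rank 21.8 within the coding sequence were found only in GFP-. The 200 bp before the start and around the GFP+ summit of the far upstream peak are printed (GRCm38.p6, RefSeq sequence, 5′ to 3′ along the gene), since these were the gene's strongest elements in both populations.
Ankrd1 before the start, chr19:36120100-36120299, - strand: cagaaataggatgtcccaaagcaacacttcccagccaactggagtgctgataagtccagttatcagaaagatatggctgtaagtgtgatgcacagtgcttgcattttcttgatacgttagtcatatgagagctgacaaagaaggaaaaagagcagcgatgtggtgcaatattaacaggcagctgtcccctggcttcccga
Ankrd1 far upstream, chr19:36167336-36167535, - strand: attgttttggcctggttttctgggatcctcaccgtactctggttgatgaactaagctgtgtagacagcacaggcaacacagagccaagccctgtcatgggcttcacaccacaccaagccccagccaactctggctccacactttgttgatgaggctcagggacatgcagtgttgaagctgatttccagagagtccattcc

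The windows were searched on both strands for short words after the motifs of factors known in muscle and endothelium, which were given by their core letters. The MEF2 word reads CTA, any 4 bases, then TAG. The AP-1 word is TGANTCA, where N is any base, and the NKX2-5 word is TNAAGTG. Factors of the GATA family were represented by AGATAA, TEAD factors by ACATTCC and ETS factors by CAGGAAGT, and the CArG box of SRF by its usual consensus. A word found is printed in capitals, no words overlapped in the windows shown, and a match is a description of the letters and not of binding. Only these spellings were counted, so sites that differ from them by a base were missed. Neither Ankrd1 window held any of them in that spelling. The Ankrd1 start window holds TGATAA on each strand, which differs from the GATA word in its first base and was not counted.

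Ankrd2 (ENSMUSG00000025172.3, chromosome 19, 42036000 to 42045110, plus strand) lies downstream of Ubtd1, and 11 of its 12 upstream GFP- peaks were in introns of that gene. The strongest, at -17988 bp, measured 1775 bp at a rank of 93.5 in GFP- and 1438 bp at a rank of 84.6 in GFP+, where its summit was at -18456 bp. Upstream GFP- peaks at -14203 bp (rank 70.3) and -20799 bp (rank 53.3) had no GFP+ partner. One small peak at -38693 bp ranked higher in GFP+ (67.0) than in GFP- (63.3). The gene body itself was nearly free of peaks, with 2.63% covered in GFP- and 0% in GFP+, the former from the start peak and a peak just past the gene end (rank 86.8). The GFP+ partner of that last peak (rank 74.3) lay outside the locus.

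Ankrd23 (ENSMUSG00000067653.12, chromosome 1, 36530188 to 36536883, minus strand) is a compact gene in a gene-dense stretch, overlapped by the gene model Gm42417. Its start peak had its summit in an intron at 1064 bp in both lists, 80 bp from an annotated start of this or another gene. The peak ended inside the gene, short of where the gene record begins, and was counted through the 250 bp window. It had lengths of 2333 bp in GFP- and 2382 bp in GFP+, and areas of 7751 and 7166. Unlike most shared peaks of these loci, it was not narrower in GFP+. A second body peak at 5145 bp had ranks of 77.9 and 77.6. Upstream, the locus takes in the starts of Ankrd39 and Sema4c and introns of Fam178b, and its strongest peak (ranks 99.1 and 98.8) lay at Sema4c, a semaphorin. The 2 regions more than 20 points higher in GFP+ outside Fhl2 were both beside Sema4c, at -17831 bp (9.23 to 61.1) and -24144 bp (31.8 to 76.9). In introns of Fam178b, by contrast, the peak at -32008 bp went from 82.6 to 13.0 and the one at -27357 bp from 86.7 to 50.9. Which gene these peaks serve cannot be read from the lists.

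The Xin repeat genes differed from each other in how much open chromatin they carried. Xirp1 (ENSMUSG00000079243.3, chromosome 9, 120013755 to 120023598, minus strand) lies inside the gene record of Cx3cr1, a chemokine receptor of macrophages. The start of Cx3cr1 itself had no peak in either list. Its strongest GFP- peak was at -4138 bp, with 1671 bp, an area of 5120 and a rank of 93.0, and the GFP+ peak had the same summit with 796 bp, an area of 3138 and a rank of 86.7. Per bp the area there was 3.06 in GFP- and 3.94 in GFP+, while the -log10 p at the summit was 11.9 and 10.1. The GFP+ peak was thus narrower, with more area per bp and a lower summit value. An intron peak at 2153 bp, at 88.7 in GFP- and 87.0 in GFP+, was its strongest GFP+ element. The start peak of 1475 bp in GFP- was divided in GFP+ into 787 bp (rank 79.0) and 378 bp (rank 44.4). Peaks at -26039 bp (rank 39.2), in an untranslated exon of Cx3cr1, and at -47884 bp (rank 40.2) were found only in GFP-. The start and the upstream summit are printed.
Xirp1 before the start, chr9:120023599-120023798, - strand: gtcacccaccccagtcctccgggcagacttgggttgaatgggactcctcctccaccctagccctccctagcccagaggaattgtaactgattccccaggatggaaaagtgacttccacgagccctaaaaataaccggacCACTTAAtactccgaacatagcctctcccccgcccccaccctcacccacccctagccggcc
Xirp1 upstream, chr9:120027636-120027835, - strand: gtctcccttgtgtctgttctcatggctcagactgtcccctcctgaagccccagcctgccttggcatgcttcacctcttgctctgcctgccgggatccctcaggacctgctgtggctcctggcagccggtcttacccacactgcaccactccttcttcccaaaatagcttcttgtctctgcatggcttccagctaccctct
The start window held the NKX2-5 word on the opposite strand (CACTTAA), a word present in 7.51% of such windows before the starts of all protein-coding genes, and among the members also in that of Ankrd23.

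Xirp2 (ENSMUSG00000027022.13, chromosome 2, 67446002 to 67526614, plus strand) had the fewest peaks and the smallest covered share of its locus of the 7, with 5 GFP- and 4 GFP+ peaks over the body of 80613 bp and the 50 kb upstream, 3 and 2 of them in the body. They were small, from 219 to 463 bp, and nearly alike in the populations. The start peak measured 357 bp in GFP- and 412 bp in GFP+, with areas of 1325 and 1287. An intron peak at 59701 bp had areas of 1030 and 809 and ranks of 60.8 and 55.5. A second intron peak at 35092 bp (34.8 and 27.9) and an upstream peak at -22988 bp (24.7 and 28.9) were shared, and the intron peak at 6855 bp (rank 15.9) was found only in GFP-. None of its 5 regions differed by more than 20 points. The start and the stronger intron element are printed as the main open sites of the gene.
Xirp2 before the start, chr2:67445802-67446001, + strand: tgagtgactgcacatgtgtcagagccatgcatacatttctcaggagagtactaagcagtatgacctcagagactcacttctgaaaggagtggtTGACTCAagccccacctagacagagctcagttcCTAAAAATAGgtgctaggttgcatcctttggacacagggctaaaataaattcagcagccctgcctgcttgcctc
Xirp2 intron, chr2:67505602-67505801, + strand: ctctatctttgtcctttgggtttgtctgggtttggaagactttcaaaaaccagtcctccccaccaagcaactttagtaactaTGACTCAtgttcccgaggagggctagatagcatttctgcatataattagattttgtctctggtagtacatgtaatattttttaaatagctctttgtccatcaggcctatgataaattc
Before the start, the AP-1 word TGACTCA and the MEF2 word CTAAAAATAG were found, words present in 4.79% and 2.46% of windows before all starts and in no other member's. The printed Xirp1 start window holds CTAAAAATAA, which differs from the MEF2 word in its last base and was not counted. The intron window also held TGACTCA, and 9.99% of GFP- and 7.71% of GFP+ summit windows hold the AP-1 word.

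**Figure D3:**
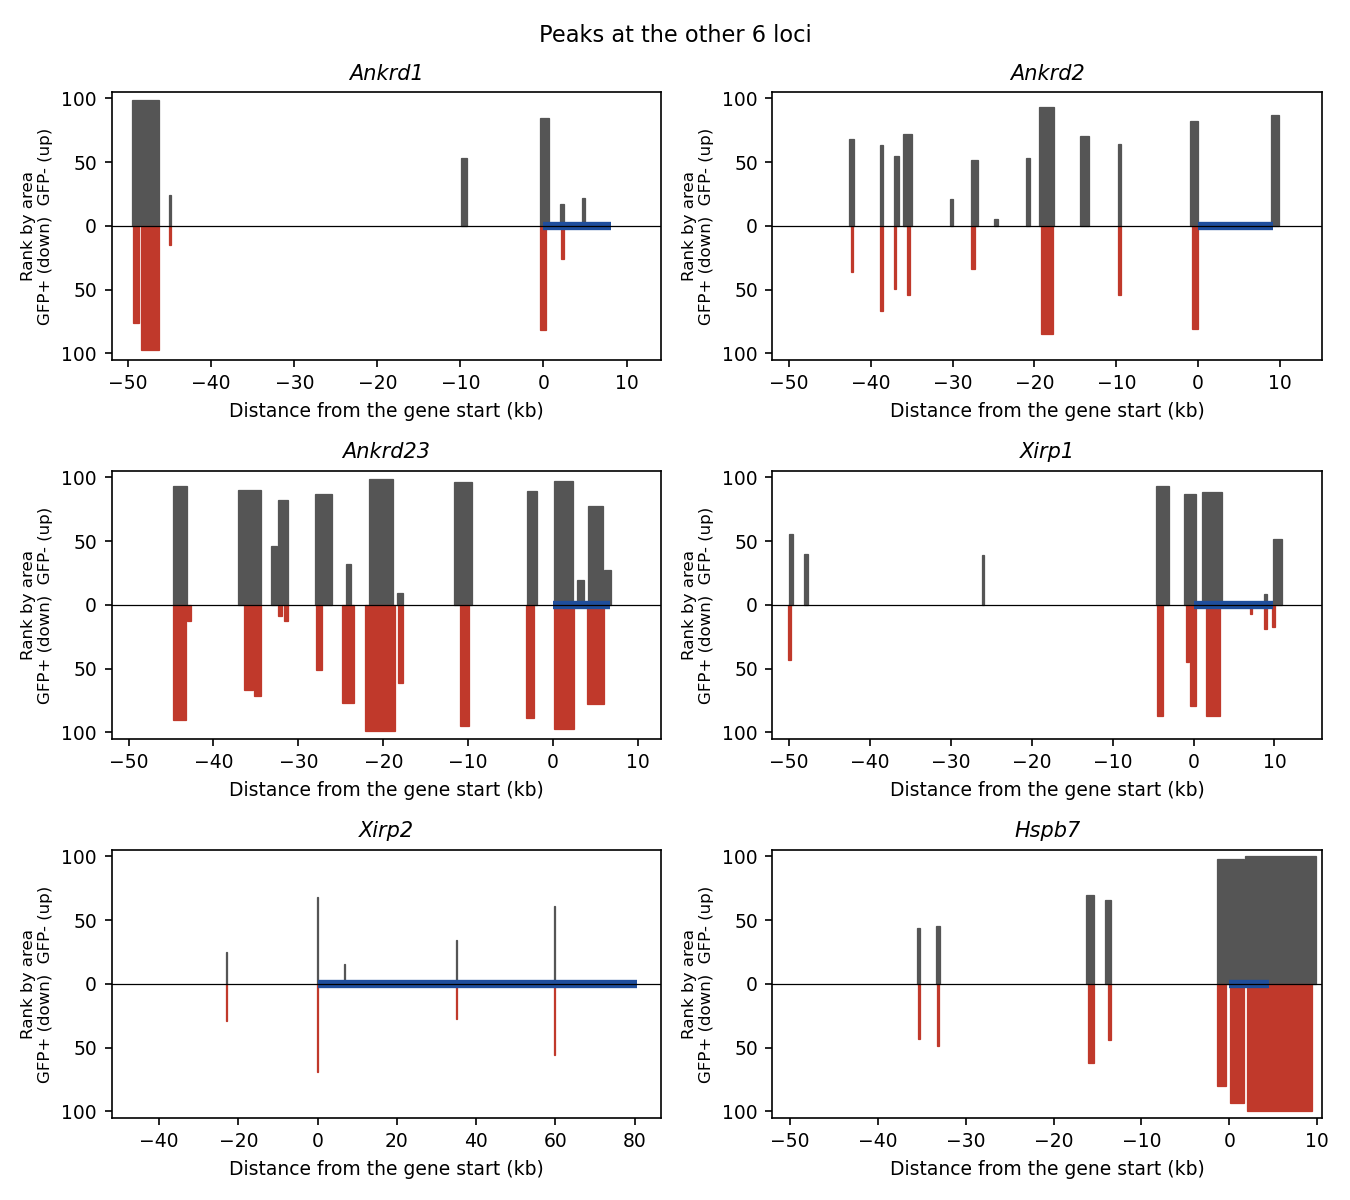
Peaks at the loci of Ankrd1, Ankrd2, Ankrd23, Xirp1, Xirp2 and Hspb7 by distance from the gene start in kb along transcription (x axis), with GFP- peaks (grey) upward and GFP+ peaks (red) downward, bar height as area rank, bar width as peak length and the gene body in blue. The strongest Ankrd1 element lies far upstream, Xirp2 has few narrow peaks, and nearly all red bars face a grey one.

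Fhl2 (ENSMUSG00000008136.14, chromosome 1, 43123074 to 43196984, minus strand) was open along much of its length. It held 52 GFP- and 44 GFP+ peaks, 44 and 39 of them with their summit in the gene body, and peaks covered 62.1% of the 73911 bp body in GFP- and 42.2% in GFP+. Of the 5000 protein-coding genes with a body of 50000 bp or more, 0 had a larger covered share in either list, and their medians were 1.86% and 1.48%. The start peak was the strongest, with 1811 bp and an area of 6748 in GFP- and 1608 bp and 5902 in GFP+. A second strong peak, near an internal annotated start, measured 4421 bp at a rank of 94.5 in GFP- and 2229 bp at a rank of 90.6 in GFP+, where 2 weaker pieces (20.3 and 5.51) lay over the rest.

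Within the Fhl2 body the populations differed from peak to peak. The peak at 13039 bp had the same summit and ranks of 78.7 in GFP- and 79.1 in GFP+, and that at 58755 bp was higher in GFP+ (63.7 and 74.0). The peak at 14708 bp went from 59.0 to 5.07 and the one at 54000 bp from 73.7 to 33.0. Peaks found only in GFP- in the body had ranks of up to 41.0. Upstream, an intergenic peak at -43034 bp kept its length (447 and 456 bp) and rank (78.3 and 76.4), while that at -44913 bp went from 65.5 to 1.66 and that at -48259 bp (rank 68.7) was found only in GFP-. The evenly shared upstream element is printed from its GFP+ summit.
Fhl2 far upstream, chr1:43239932-43240131, - strand: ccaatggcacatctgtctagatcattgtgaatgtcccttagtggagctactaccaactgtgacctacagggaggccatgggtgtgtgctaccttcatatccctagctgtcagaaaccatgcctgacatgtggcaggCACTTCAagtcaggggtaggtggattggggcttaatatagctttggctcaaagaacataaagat
It held the NKX2-5 word on the opposite strand (CACTTCA), which 9.35% of GFP- and 9.32% of GFP+ summit windows hold.

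**Figure D4:**
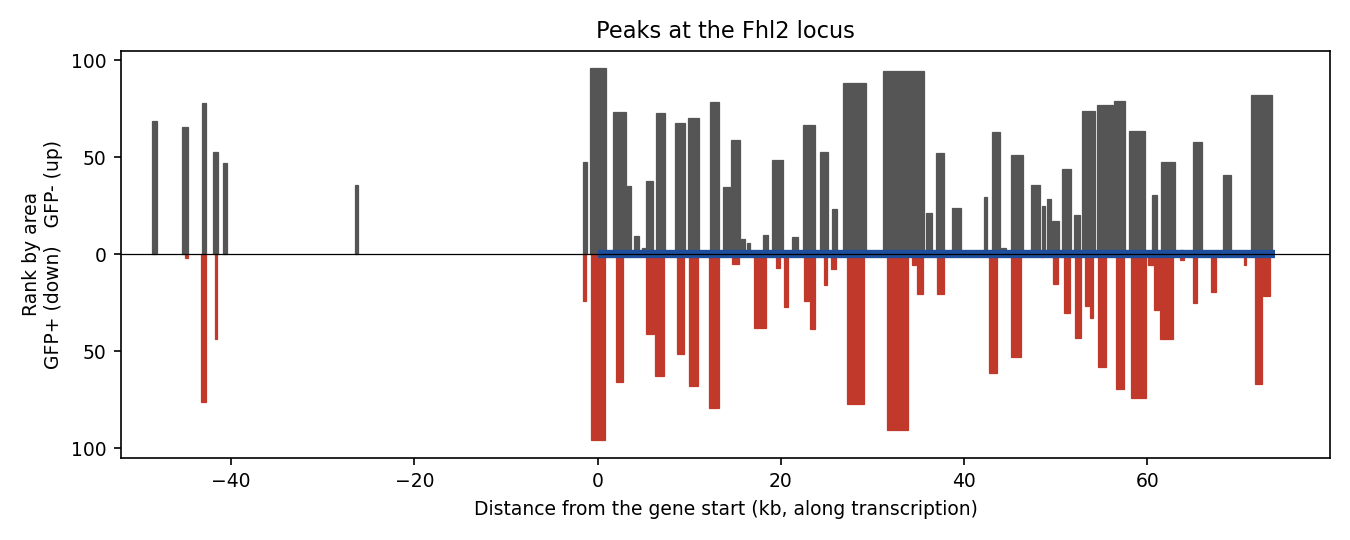
Peaks at the Fhl2 locus by distance from the gene start in kb along transcription, with GFP- peaks (grey) upward and GFP+ peaks (red) downward, bar height as area rank, bar width as peak length and the gene body in blue. Peaks fill 62.1% of the body in GFP- and 42.2% in GFP+.

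Hspb7 (ENSMUSG00000006221.7, chromosome 4, 141420779 to 141425311, plus strand) had the strongest peak of all 7 loci. It began within the gene and ran past its end, with the summit at 5129 bp in both lists, toward Srarp on the other strand. It measured 8116 bp with an area of 21566 in GFP- and 7349 bp with an area of 14989 in GFP+, at a rank of 99.9 in each. The start peak of 3036 bp in GFP- (area 8928) was divided in GFP+ into 1642 bp over the 5′ end of the gene (area 4803, rank 93.1) and 1000 bp before it (area 2166, rank 80.4). Together these peaks covered 97.0% of the gene body in GFP- and 91.1% in GFP+.
Hspb7 past the end, chr4:141425808-141426007, + strand: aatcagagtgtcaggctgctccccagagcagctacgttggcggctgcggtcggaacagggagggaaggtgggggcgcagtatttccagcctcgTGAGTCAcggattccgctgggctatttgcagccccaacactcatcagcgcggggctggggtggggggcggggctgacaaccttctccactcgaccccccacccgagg
This window around the common summit is printed because it is the centre of the widest and strongest domain, and it held the AP-1 word TGAGTCA.

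The share of the gene body lying in peaks separated the members more than their starts did. It was 18.2% in GFP- and 8.65% in GFP+ for Ankrd1, 32.0% and 28.6% for Xirp1, and 82.9% and 65.9% for Ankrd23, beside medians of 2.41% and 1.94% over all protein-coding genes. Xirp2, at 1.42% and 1.06%, was below those medians, as was Ankrd2 in GFP+. Short bodies such as those of Hspb7 and Ankrd23 can be filled by the start peak and its neighbours, which does not apply to Fhl2. For all 7 genes the covered share of the locus was lower in GFP+, from -0.21 percentage points for Xirp2 to -13.6 for Fhl2. The median was -4.39, beside -0.19 over all protein-coding genes. These differences start from unlike levels, as the median GFP- share of the locus was 15.0% for the members and 2.89% for all protein-coding genes. The contrast in points is therefore not a contrast in relative loss, and the GFP+ list as a whole covers fewer bases. With lists of equal length the median was -3.81, and with 10 or 100 kb upstream in place of 50 kb it was -7.98 and -2.56.

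**Figure D5:**
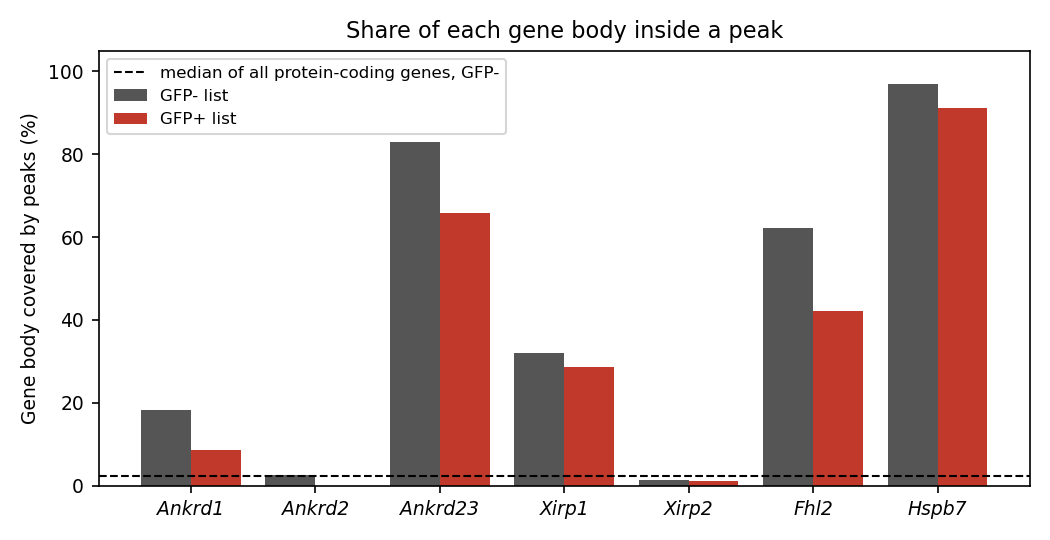
Share of each gene body lying within peaks, in percent, in the GFP- list (grey) and the GFP+ list (red), with the GFP- median of all protein-coding genes (2.41%) as a dashed line. Hspb7, Ankrd23 and Fhl2 are mostly open in GFP-, and Xirp2 lies below the line.

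Each word searched for was found in a minority of the member peaks. In the 200 bp around the summits, the MEF2 word was found in 4 of 104 GFP- and 3 of 90 GFP+ peaks (list-wide 4.83% and 5.26%), the NKX2-5 word in 10 and 12 (9.35% and 9.32%) and the AP-1 word in 12 and 6 (9.99% and 7.71%). The GATA word was in 9 and 3 (8.97% and 8.87%), the TEAD word in 2 and 1 (4.18% and 3.76%), and the ETS word in 0 and 1 (2.89% and 3.18%). The CArG box was in 2 and 1 (1.12% and 1.08%) and in none of the 7 windows before the starts.

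The gene nearest to each member in 4 values (start rank and covered locus share in each list) was found among all other protein-coding genes. Fhl2 stood most alone, with only Atp2a2, the cardiac calcium pump of the sarcoplasmic reticulum, within 5 points (distance 4.23), and Ankrd23 had 3 such genes, of which Cbx8 was nearest (3.04). Ankrd2 had 10, the nearest being H13 (1.18). The pattern was common for the rest, with 48 genes within 5 points of Xirp1 (nearest Rtn4rl2, 2.54), 96 of Xirp2 (Lama1, 0.971), 192 of Hspb7 (Phldb1, 1.38) and 202 of Ankrd1 (Scd4, 1.10).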

How the data were processed

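ATAC-Seq peak lists of sorted mouse heart nuclei were analysed, from 4 libraries in 2 populations. After trimming with fastp and mapping to mm10, the authors filtered on mapping quality, dropped duplicates, brought the libraries to 1 depth by downsampling and ran Genrich on both replicates of a population at once, which leaves lists of unequal length and no values per replicate. The submitters' processing notes name CASAVA 1.4, Bowtie2 2.3.5.1, SAMtools 1.19, Picard and Genrich. The deposited area is a signal summed over each peak by the authors' caller, and no peak had an area under 200. The deposited summit -log10 p-value served only as an alternative for ranking. The deposited score, limited to 1000, and the unused q-value column were not used.

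Here peaks were placed on the GENCODE M21 genes and the GRCm38.p6 sequence, ranked by area within their list, merged into regions where they overlapped by 1 bp or more, and counted at gene bodies and 50 kb upstream. The RefSeq promoter table matched 6 of the 7 members, and its 8 sequences equalled the genome. A start peak lies within 250 bp of the 5′ end of the gene record. Calculations used Python 3.11.15, numpy 2.4.6, pandas 2.3.3 and pysam 0.24.0, with figures from matplotlib 3.10.9, and were tested on simulated data. All 7 genes were named, with their start peaks, strongest peaks, neighbouring genes and nearest genes in pattern, and further peaks were picked as examples after their values were seen. The members and gene lists were chosen with earlier results of these data known. Alternatives changed the upstream reach, overlap, peak threshold, list length, ranking measure, start window and start definition. Some neighbouring genes and a marker list are not reported here.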

Additional observations from a re-analysis of the deposited data

How the results depend on the processing

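The number of peaks, the sharing, the ranks and the covered shares were recomputed under each alternative. No paired analysis was possible because each list pools both replicates, and leaving out a replicate was not run for the same reason. Of 50 recomputed summary values, 2 reversed and 8 moved beyond a tolerance of 1.5 times for counts and of the interval or spread over members or regions for other values, and 40 stayed within it. The median covered-share difference, within that wide spread, still ran from -7.98 to -2.56 with the upstream reach. A reciprocal overlap of 50% lowered the shared share to 53.8% of GFP- and 60% of GFP+ peaks (list-wide 60.7% and 73.7%), so the member share then lay below the list in both. Leaving out the lowest 25% of each list by summit p left 65 GFP- and 54 GFP+ peaks. With the GFP- list limited to the length of the GFP+ list, the shared share of GFP+ peaks was 88.9% (list-wide 79.2%), the median region difference was -2.64 and the median start difference turned to 0.42, with Ankrd1 at 0.38, Ankrd2 at 2.21, Fhl2 at 0.42 and Xirp2 moving from 1.00 to 7.84. Ranking by summit p gave a median region difference of -4.60 and turned Ankrd23 to -2.15. Ranking by area per bp gave a median region difference of -1.79, and the start difference turned to 0.98 in the median, 7.20 for Ankrd1, 11.0 for Ankrd2, -3.21 for Ankrd23, 9.75 for Xirp1, -5.65 for Xirp2, 0.38 for Fhl2 and 0.98 for Hspb7. The cause was not tested. The alternatives without Fhl2 and with only peaks nearest to a member's start were chosen after seeing the data. Intervals cover counting error only, and differences between the lists cannot be set against replicate spread.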
